A study of Mus musculus with 2 samples.

Results

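The genes described here are 35 mouse genes that run and restrain the cell division cycle: 9 cyclins, 4 cyclin-dependent kinases, 7 kinase inhibitors, the 8 E2F transcription factors, the 3 pocket proteins of the retinoblastoma family, and the 3 CDC25 phosphatases with the kinase Wee1. They were chosen by name as a gene family, not by a measured value, though with earlier results of these data known. All 35 were found among the 21938 protein-coding genes of the GENCODE M21 annotation (build mm10). Accessible DNA had been charted with ATAC-seq, where a transposase puts sequencing adapters into open chromatin, in G1E, a mouse cell line of the erythroid lineage whose label reads Gata1-. G1E cells lack the erythroid transcription factor GATA1 and stay immature, dividing progenitors. There was 1 group, of 2 biological replicates. Each replicate was made from 50000 cells and had its own biosample record, and both records name the same male C57BL/6J donor, postnatal, at an age of 0 days. The labels give no treatment, and both replicates carry the Gata1 defect, so there is no control and no comparison between conditions. The labels do not say if the replicates were separate cultures, so their spread can be technical.

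The authors deposited lists of peaks, not reads or counts. Overlapping peaks were merged, which gave 21194 regions in replicate 1 and 22620 in replicate 2. Of 25799 regions in the joined set, 17425 were present in both replicates. A gene's promoter region has any of its bases within 1000 bp of the start site of any of its transcripts. A distal region lies over 1000 bp from every annotated start site and up to 50 kb from the outermost 5′ end of the gene, and was counted where both replicates held it. Signal is the authors' enrichment value of the strongest peak in a region, with no scale shared between libraries. It is therefore given with its percentile, the rank of the region within the list of its own replicate. How deeply the libraries were sequenced is unknown, so the absence of a region does not show closed chromatin. Nor can a site open in few cells be told apart from one weakly open in all of them. As a check of the label, 8 of 8 erythroid markers, Klf1, Tal1, Gfi1b, Nfe2, Epor, Slc4a1, Hba-a1 and Hba-a2, had a promoter region in both replicates. Of 7 markers of other blood cells, 1 did, namely Spi1. Gata1 itself also had one in both, which does not check a lesion elsewhere in the gene.

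In a dividing cell, D-type cyclins with CDK4 or CDK6 begin the phosphorylation of the pocket proteins, which then release E2F factors. E2F factors switch on genes for DNA synthesis, among them those of the E and A cyclins that drive CDK2, and B-type cyclins with CDK1 later start mitosis once a CDC25 phosphatase removes the phosphates placed by WEE1. INK4 inhibitors (Cdkn2 genes) block CDK4 and CDK6, whereas CIP/KIP inhibitors (Cdkn1 genes) act mainly on the cyclin-CDK2 complexes. Promoters of S phase genes often hold E2F sites, and those of mitotic genes often hold CCAAT boxes, bound by NF-Y, and a cell cycle homology region (CHR), bound by the MuvB complex. Red cell precursors divide several times before they leave the cycle, and GATA factors act on many of their genes.

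Of the 35 genes, 28 (80%) had a promoter region in replicate 1, and the same 28 had one in replicate 2. Over all protein-coding genes the share was 40.5% in replicate 1, 42.1% in replicate 2 and 39.1% in both. Promoter regions were listed for 7 of 9 cyclins, 4 of 4 kinases, 4 of 7 inhibitors, 6 of 8 E2F genes, 3 of 3 pocket protein genes, and 4 of 4 genes of the CDC25 and Wee1 group. The 7 genes with none in either replicate were Ccna1, Ccnd1, Cdkn1c, Cdkn2a, Cdkn2b, E2f2 and E2f6. Counting only genes whose regions overlap between the replicates gave 26, since Rb1 and Rbl1 had different regions in each, against 38.8% of all genes.

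The sequences that carry the promoter results are shown first, from build GRCm38 (mm10) and on the strand of the gene. Matches were exact and on either strand, and capitals mark them: E2F (TTTCCCGC, TTTGGCGC, TTTCGCGC or TTTGCCGC), CHR (TTTGAA and the variant TTCGAA) and the NF-Y box (CCAAT), each also as its reverse complement. The stretch of Cdk1, chr10:69352961-69353060 on the minus strand, holds an E2F match centred at -102 and a CHR match at -43 from the nearest start site, with a CCAAT box between them. That of Cdc25a, chr9:109875466-109875565 on the plus strand, has an E2F match beside a CCAAT box. Ccnb2 is shown in 2 pieces of the minus strand, chr9:70421557-70421656 with 3 CCAAT boxes at -92, -59 and -26, and chr9:70421533-70421562 with a CHR match at -1. For Cdkn2d, chr9:21291493-21291592 on the minus strand, the CHR match is centred at -136, while the E2F match reaches past the searched window and is not in the counts. The last 3, like the CHR piece of Ccnb2, are short because they touch untranslated sequence. E2f1, chr2:154569864-154569893 on the minus strand, has a pair of E2F matches at 7 and 20. Cdk2 is shown at chr10:128705173-128705202 on the minus strand. Rbl2, chr8:91070102-91070131 on the plus strand, has a CHR match.
Cdk1: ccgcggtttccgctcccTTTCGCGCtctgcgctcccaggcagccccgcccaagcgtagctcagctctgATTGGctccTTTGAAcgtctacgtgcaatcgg
Cdc25a: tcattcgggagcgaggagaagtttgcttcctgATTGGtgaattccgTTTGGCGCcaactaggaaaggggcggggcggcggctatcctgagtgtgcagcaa
Ccnb2, CCAAT boxes: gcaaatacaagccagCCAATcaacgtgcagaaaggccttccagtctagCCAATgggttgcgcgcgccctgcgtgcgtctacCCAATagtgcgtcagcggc
Ccnb2, CHR: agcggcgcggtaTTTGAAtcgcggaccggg
Cdkn2d: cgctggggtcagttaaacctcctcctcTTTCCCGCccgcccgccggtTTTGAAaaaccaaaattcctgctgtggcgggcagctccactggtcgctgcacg
E2f1: ctttcGCGGCAAAaaggaTTTGGCGCgtaa
Cdk2: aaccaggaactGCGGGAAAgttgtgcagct
Rbl2: ggcgcttcgcggTTTGAAtggctgcgggcc

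**Figure D1:**
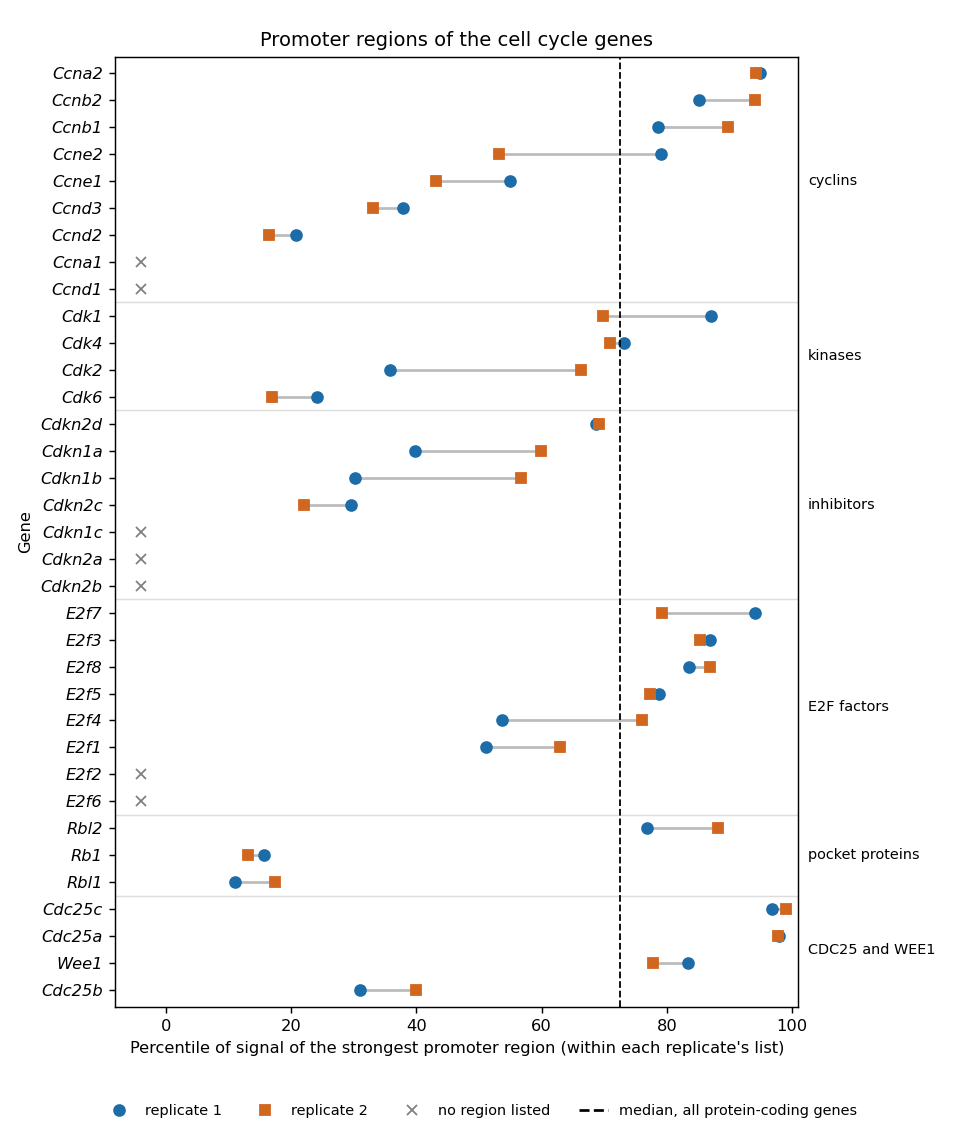
Percentile of signal of the strongest promoter region of each of the 35 genes, ranked within the list of replicate 1 (circles) and of replicate 2 (squares), with a grey line joining the replicates, crosses for the 7 genes with no region listed, and a dashed line at the median of all protein-coding genes (72.5). Cdc25c, Cdc25a and Ccna2 stand at the top, and Rb1, Rbl1, Ccnd2 and Cdk6 lie lowest among the listed genes.

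The strongest promoter regions of the 28 genes had a median mean percentile of 67.6, with a range of 14.3 to 97.9, beside 72.5 over the 8571 protein-coding genes with a region in both replicates. Ranked by the authors' −log10 p, the order of these medians turned, with 75.9 for the 28 genes and 72.7 for all genes, so neither set stood clearly above the other. With replicate 1 alone the medians were 70.9 for the 28 genes and 70.1 for all genes with a region in replicate 1. Over the 8571 genes the replicate 1 median was 71.3, so on that set the order did not turn. At or above the 75th percentile lay 12 of the 28 (42.9%, all genes 46.1%), and under the 25th lay 4 (14.3%, all genes 5.95%), which were Ccnd2, Cdk6, Rb1 and Rbl1. The percentiles of the replicates differed by a median of 7.35 points for these genes and 7.23 for all genes. In 5 genes the gap was over 20 points, and those are named below.

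Among the cyclins, those of S phase and mitosis had the strongest promoters and the D-type cyclins the weakest. Ccna2 encodes cyclin A2, the partner of CDK2 and CDK1, and its region (chr3:36571872-36572471) had a signal of 15.7 in replicate 1 and 16.8 in replicate 2, at the 94.9 and 94.1 percentiles. The mitotic cyclin Ccnb1 (chr13:100786309-100786890) had 11.7 and 15.3, at the 78.6 and 89.7 percentiles. Its relative Ccnb2 (chr9:70421422-70421926) had 12.9 and 16.7, at the 85.2 and 94.0 percentiles. All 3 regions were above the all-gene median of 72.5 in both replicates, and their summits lay 94, 17 and 55 bp from a start site. The E cyclins, partners of CDK2 at the entry to S phase, ranked lower. Ccne1 had a signal of 8.60 and 8.19 at its stronger region (chr7:38107385-38107850), at the 55.0 and 43.2 percentiles, with another 514 bp upstream of the start site at 7.70 and 7.33. Ccne2 (chr4:11191151-11191564) had 11.8 and 9.22, at the 79.1 and 53.2 percentiles, and is among the 5 genes with a gap over 20 points. The germ cell cyclin Ccna1 had no promoter region in the thresholded or the lenient lists, and the nearest thresholded region lay 56.4 kb away in replicate 1 and 235 kb away in replicate 2 (lenient 10.8 and 24.7 kb).

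The D-type cyclins differed from each other in where their regions lay. Ccnd2 had 3 promoter regions in both replicates, each weak. One lay upstream of the outermost 5′ end (signal 5.05 and 5.30). Another lay in the 5′ untranslated exon of an inner start site (4.79 and 5.93). The last lay in an intron, 6.56 kb inside the gene (chr6:127145497-127146207, 5.75 and 5.64). The strongest was the intronic one in replicate 1 and the exonic one in replicate 2, so the rank of Ccnd2 comes from different regions. The intronic one had 3 GATA matches and was the sole one with any among the 32 promoter regions in both replicates. Its summit lay 1053 bp inside the nearest start site and the matches 957 to 1041 bp inside, so it counts as a promoter region by its edge. At Ccnd3 the outermost 5′ end carried a region in replicate 2 alone, with a signal of 3.73 at the 1.03 percentile. Its regions in both replicates lay at inner start sites 88.4 kb (4.31 and 5.06) and 90.9 kb (chr17:47595506-47596190; 7.06 and 7.31) inside the gene, the latter at the 37.9 and 33.1 percentiles. Ccnd1 had no thresholded promoter region. In the lenient lists it had one in each replicate, with signals of 3.42 and 6.18, whose summits lay 527 and 534 bp inside a start site. Their irreproducible discovery rates of 0.372 and 0.198 missed the threshold of 0.05. The nearest thresholded region, with signals of 10.4 and 10.7, lay 22.8 kb away in both replicates, within 1000 bp of a start site of LTO1 and Bc1, and so does not count as distal. Of the 7 genes with no promoter region, Ccnd1 was the sole one with a region in the lenient lists.

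Each of the 4 kinase genes had one in both replicates. Cdk1, the mitotic kinase, had a region (chr10:69352757-69353331) with 13.3 and 11.4, at the 87.1 and 69.9 percentiles. Cdk4 (chr10:127063066-127063880), which phosphorylates the pocket proteins, had 10.8 and 11.5, at the 73.2 and 70.9 percentiles, and Cdk6, which does the same with D-type cyclins, had 6.07 and 5.98, at the 24.2 and 17.04 percentiles. Cdk4 was above Cdk6 in each replicate by more than the gap between the replicates of either gene. The region of Cdk6 (chr5:3343607-3343984) lay at an inner start site, 2.36 kb inside the gene, and none was listed at its outermost 5′ end. Cdk2 (chr10:128704465-128705443), the S phase kinase, had 6.86 and 10.8, at the 35.8 and 66.2 percentiles, a gap over 20 points. The Cdk2 summit was at 128704616 in replicate 1 and at 128705113 in replicate 2, so these values come from different peaks. Its region also lies within 1000 bp of the start site of Pmel, a pigment cell gene, and cannot be assigned to one of them.

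The inhibitors with a region had mean percentiles of 25.9 to 68.9, all below the all-gene median of 72.5. Cdkn2d (chr9:21291044-21291709), an INK4 inhibitor, ranked highest, with 10.2 and 11.3, at the 68.7 and 69.2 percentiles. Its relative Cdkn2c (chr4:109666686-109667251) had 6.42 and 6.36, at the 29.7 and 22.1 percentiles. Cdkn1a and Cdkn1b encode CIP1 and KIP1, and both ranked higher in replicate 2, each by a gap over 20 points: Cdkn1b had 6.47 and 9.67 (30.2 and 56.7 percentiles), and Cdkn1a had 7.24 and 10.01 (39.9 and 59.9). At Cdkn1b the values come from different peaks, with the summit at 134920693 in replicate 1 and at 134920379 in replicate 2. The region of Cdkn1a (chr17:29093498-29093914) lay at an inner start site, 2.72 kb inside the gene, where an exon of the noncoding gene AC167363.2 is annotated. Cdkn1c, an imprinted inhibitor, had no promoter region, and the nearest thresholded region was 12.5 kb from a start site in both replicates. With signals of 5.49 and 8.23, it is under 1000 bp from a start of Slc22a18, and so does not count as distal. Cdkn2a, which encodes INK4A and ARF, and its neighbour Cdkn2b had none in the thresholded or the lenient lists. The nearest thresholded regions lay 56.3 and 69.7 kb from Cdkn2a and 39.9 and 55.5 kb from Cdkn2b (lenient 9.01 and 22.8 kb, and 7.19 and 40.6 kb).

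Among the E2F factors, E2f7 and E2f8, the repressors that form no dimer with a DP partner, had strong promoters. E2f7 (chr10:110745175-110745895) had 15.3 and 12.9, at the 94.1 and 79.2 percentiles, and E2f8 (chr7:48880926-48881383) had 12.6 and 14.5, at the 83.5 and 86.9 percentiles. The activator E2f3 (chr13:29985941-29986778) had 13.3 and 14.2, at the 86.8 and 85.3 percentiles. These 3 lay above the all-gene median in both replicates, as did E2f5, which acts with the pocket proteins as a repressor, with 11.7 and 12.6 (78.8 and 77.3 percentiles). E2f4 (chr8:105297372-105297793), the other such repressor, had 8.50 and 12.3, at the 53.8 and 76.0 percentiles, a gap over 20 points. The activator E2f1 (chr2:154569798-154570356) had 8.24 and 10.4, at the 51.2 and 63.0 percentiles, at its 5′ end. A second, weaker region of E2f1, with 5.92 and 4.09, had its summit in coding sequence 0.734 kb inside the gene. The activator E2f2 and the repressor E2f6 had no promoter region in the thresholded or the lenient lists. For E2f2 the nearest thresholded region was 2.41 kb from a start site in replicate 1 and 2.42 kb in replicate 2. For E2f6 it was 5.11 kb away in replicate 1 and 70.1 kb away in replicate 2, where the lenient list had one at 2.59 kb (signal 5.27).

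The pocket protein genes differed widely. Rbl2, which encodes p130, had a region at its start site (9.72 and 7.98) and a stronger one 0.672 kb inside the gene (chr8:91070401-91070917), with 11.4 and 14.9, at the 76.8 and 88.1 percentiles. Rb1, the retinoblastoma gene, had no region in both replicates. In replicate 1 its region, with a signal of 5.43, lay 86.4 kb inside, at an inner start site and in coding sequence of Lpar6, a gene within an Rb1 intron. In replicate 2 it lay 343 bp upstream of the outermost 5′ end (chr14:73325945-73326277), with 5.72. Rbl1, which encodes p107, had 5.10 in replicate 1, 25 bp inside a start site, and 6.03 in replicate 2, 447 bp inside. The Rb1 and Rbl1 regions were at the 11.1 to 17.5 percentiles, below Rbl2 in each replicate.

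The CDC25 phosphatases spanned a wide range. Cdc25c, the phosphatase of mitotic entry, had 16.6 and 20.2, at the 96.7 and 99.0 percentiles. Cdc25a (chr9:109875149-109875811), which acts at the start of S phase and later, had 17.4 and 18.8, at the 97.9 and 97.7 percentiles. Cdc25b had 6.54 and 7.94, at the 31.0 and 40.0 percentiles, and its region is also within 1000 bp of the start of Spef1. Wee1 (chr7:110121355-110122099), the kinase that opposes them, had 12.6 and 12.7, at the 83.4 and 77.8 percentiles, in an intron of the overlapping gene 1600010M07Rik. The values of Cdc25a and Cdc25c were above those of Cdc25b and Wee1 in both replicates.

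The 35 genes had 43 distinct promoter regions, of which 32 were in both replicates, 5 in replicate 1 alone and 6 in replicate 2 alone. In shape these 32 resembled promoter regions at large. Their median width was 570.5 bp, beside 555 bp for the 8538 promoter regions of all protein-coding genes. Around the summit, 200 bp had a median GC content of 64.5% (all 62.5%) and a CpG observed to expected ratio of 0.782 (all 0.769). The summit lay a median of 73.5 bp from a start site of the cell cycle gene itself, and 25 of 32 lay within 150 bp of one. For all promoter regions the median was 68 bp, measured to the nearest start site without that limit. By annotation, 16 summits were intergenic, 8 were in introns, 4 in exons of noncoding transcripts, 3 in 5′ untranslated exons and 1 in coding sequence.

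Exact motif matches were counted in the 200 bp around each of the 32 summits, beside the share of all 8538 promoter regions. An E2F match was in 4 (12.5%, all 3.01%), those of Cdk1, Cdk2, E2f1 and Cdc25a. This count depends on the window, with 1 region (all 1.32%) in 100 bp and 9 regions (all 7.75%) over the whole region. A CHR match was in 5 (15.6%, all 6.85%), those of Ccnb2, Cdk1, Cdkn2d, Rbl2 and the coding region of E2f1. CCAAT was in 20 (62.5%, all 39.6%), with 4 boxes at Cdc25c and 3 each at Ccnb2, E2f3 and the start site of E2f1. Cdk1 was the sole gene with E2F, CHR and CCAAT matches in the 200 bp of 1 region. Cdkn2d had CHR and CCAAT matches in its 200 bp, and its E2F match reached past that window. The SP1/KLF box GGGCGG was in 23 (71.9%, all 58.6%) and the E-box CACGTG in 3 (9.38%, all 8.56%). The ETS match CCGGAAG was in 1 (3.12%, all 18.9%), at Ccnd3, and the GATA match in 1 (3.12%, all 10.4%), at Ccnd2. NRF1 (GCGCATGC, all 4.37%) and CRE (TGACGTCA, all 3.53%) matches were in none. A match is a stretch of letters, not a bound site, and no match says only that these letters are not in the window.

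**Figure D2:**
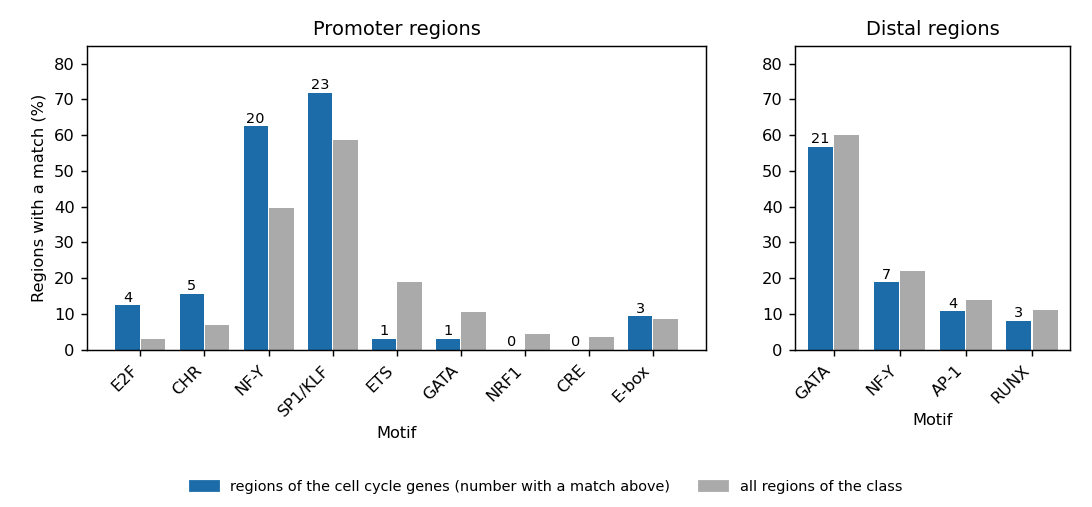
Percent of regions with an exact motif match in 200 bp around the summit, for regions of the cell cycle genes (blue, 32 promoter and 37 distal regions) and all regions of the class (grey, 8538 and 8227), with the number of matching blue regions above each bar. The blue bar for CCAAT at promoters, 62.5%, is taller than the grey one at 39.6%, and the GATA bars at distal regions are close, at 56.8% and 60%.

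Whether a gene lacks a listed region and whether its promoter holds a motif can be set side by side in the RefSeq promoter windows (GRCm38), which span the sequence around a start and matched 25 of the 35 genes. In them 8 genes had an E2F match, namely Cdk1, Cdk2, Cdkn2a, E2f2, E2f3, E2f7, Rbl1 and Cdc25a, beside 2.6% of 27025 genes in that table. Of the 25 genes, 5 had no promoter region in either replicate. A match was in 2 of these 5 (40%), Cdkn2a and E2f2, each with 2 windows, beside 8 of all 25 (32%). The other 6 genes with a match had a promoter region in each replicate. These windows are not the 200 bp around the summits, and E2f1, which had E2F matches near its summit, had none in its window.

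Distal regions present in both replicates were within 50 kb of 21 of the 35 genes (60%), beside 32.3% of all protein-coding genes. They were 37 distinct regions, with a median of 1 per gene against 0 for all genes. To show where GATA motifs lie in them, stretches of 5 regions with a match and of 1 promoter region are given from build GRCm38 (mm10), on the strand of the gene, with GATA matches (AGATAA and the variant TGATAA, or the reverse complement of either) in capitals. For Ccnd3 this is chr17:47535913-47536012 on the plus strand, in an intron of the gene. For Cdk6 it is chr5:3354417-3354516, for E2f2 chr4:136178087-136178186 and for Rbl2 chr8:91077549-91077648, each on the plus strand and in an intron of the gene. Cdc25a is shown at chr9:109863212-109863311 on the plus strand, between genes, the weakest of the 37 by mean percentile (14.1). Ccnd2, chr6:127145639-127145738 on the minus strand, is the intronic promoter region named above, shown since it had 3 matches.
Ccnd3: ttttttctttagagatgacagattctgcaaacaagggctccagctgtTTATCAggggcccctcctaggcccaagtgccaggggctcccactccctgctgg
Cdk6: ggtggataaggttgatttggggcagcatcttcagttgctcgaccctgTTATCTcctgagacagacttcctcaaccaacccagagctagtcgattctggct
E2f2: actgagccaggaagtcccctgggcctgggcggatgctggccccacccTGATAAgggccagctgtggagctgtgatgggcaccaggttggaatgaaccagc
Rbl2: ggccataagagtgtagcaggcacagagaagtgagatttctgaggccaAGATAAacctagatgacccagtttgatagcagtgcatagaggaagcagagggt
Cdc25a: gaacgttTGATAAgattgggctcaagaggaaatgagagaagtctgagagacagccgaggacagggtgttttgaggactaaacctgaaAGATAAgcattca
Ccnd2: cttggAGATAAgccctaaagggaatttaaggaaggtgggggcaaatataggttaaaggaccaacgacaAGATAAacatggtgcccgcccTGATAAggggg

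**Figure D3:**
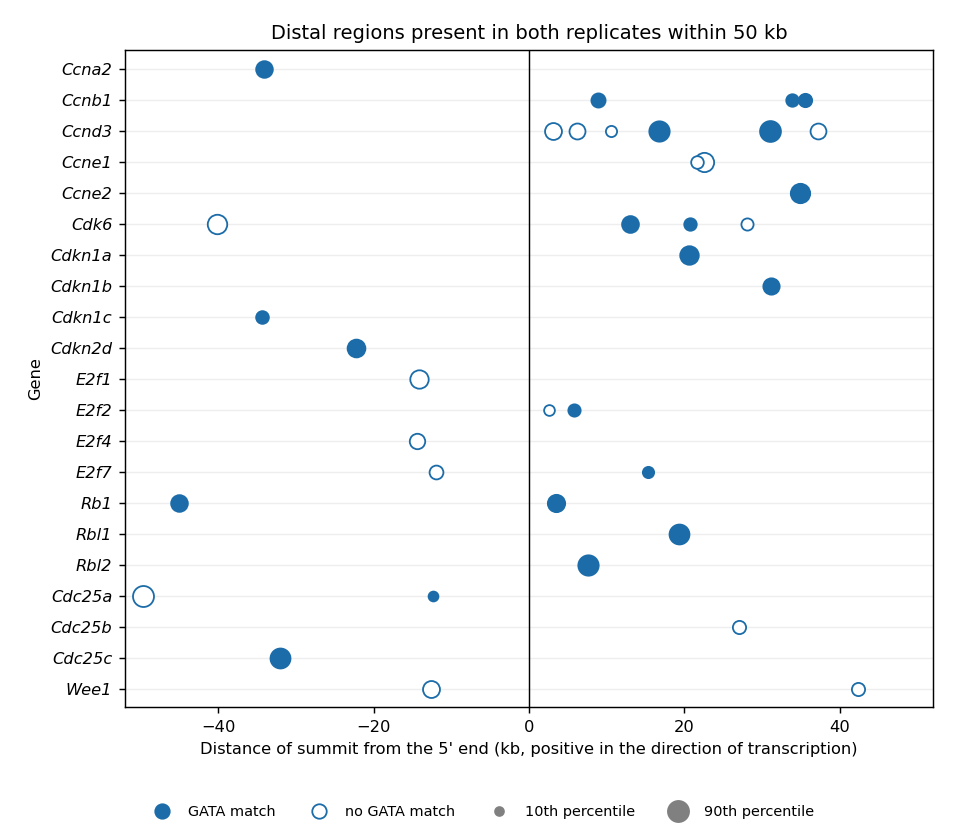
Distal regions in both replicates for the 21 genes that had any, by the distance of the summit from the 5′ end in kb, positive in the direction of transcription; filled circles have a GATA match, open ones have none, and area rises with the mean percentile of signal. Ccnd3 has the most with 6, followed by Cdk6 with 4, and 21 of the 37 circles are filled.

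Ccnd3 had the most, with 6 distal regions, all in its own introns. The strongest pair lay 16.7 kb (chr17:47521409-47522087; signal 13.4 and 13.0) and 31.0 kb (chr17:47535733-47536399; 12.8 and 15.9) inside the gene, at mean percentiles of 83.4 and 88.1, each with a GATA match. The other 4 lay 3.06, 6.18, 10.6 and 37.2 kb inside, with signals of 4.64 to 10.02 and no GATA match. Every one of the 6 had a higher signal than the region at the outermost 5′ end of Ccnd3, which was listed in replicate 2 alone at 3.73. Both strong regions also exceeded the inner promoter region at 90.9 kb in each replicate, as did the one at 3.06 kb. Those at 6.18 and 37.2 kb exceeded it in replicate 2 alone, and that at 10.6 kb in neither.

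Cdk6, the kinase partner of cyclin D3, came next with 4. One lay 40.2 kb upstream between genes (chr5:3301156-3301503; 10.2 and 13.7) with a pair of AP-1 matches (TGANTCA), and 3 lay in its introns, 13.0 kb (9.54 and 8.60), 20.8 kb (6.59 and 6.39) and 28.0 kb (6.64 and 6.12) inside. The first 2 of the intronic regions had a GATA match. As at Ccnd3, the strongest distal region exceeded the promoter region (6.07 and 5.98) in both replicates. No distal region in both replicates was found for the other D-type cyclins, Ccnd1 and Ccnd2, for the kinases Cdk1, Cdk2 and Cdk4, or for Ccnb2, Cdkn2c, E2f3, E2f5 and E2f8.

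**Figure D4:**
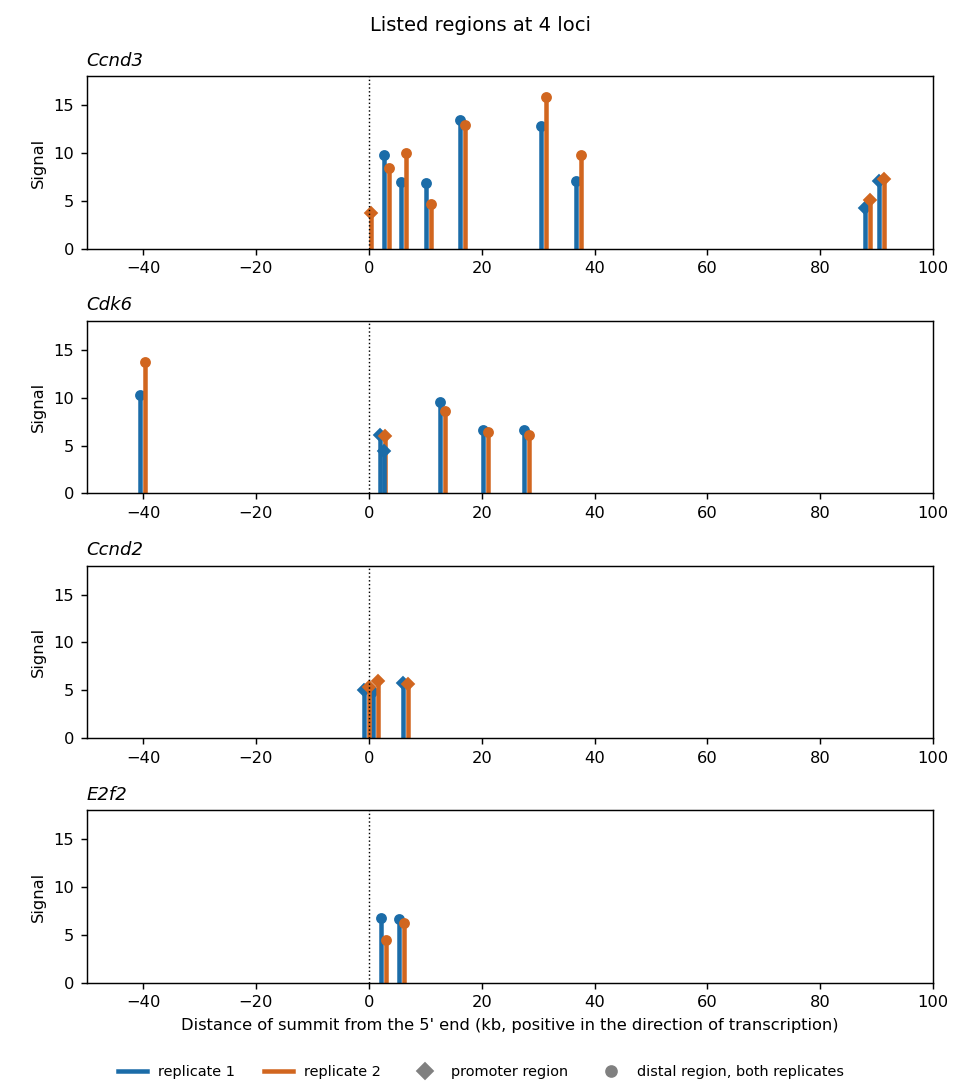
Signal of promoter regions (diamonds) and of distal regions in both replicates (circles) at Ccnd3, Cdk6, Ccnd2 and E2f2, by distance of the summit from the 5′ end in kb; replicate 1 is blue and replicate 2 orange, drawn slightly apart so that both can be seen. The tallest lines at Ccnd3 are the distal regions at 16.7 and 31.0 kb, and E2f2 has distal regions but no promoter region.

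Of the 7 genes without a promoter region, E2f2 and Cdkn1c had distal regions. E2f2, an activator with a known part in red cell maturation, had 1 in its first kilobases, 2.58 kb inside (6.73 and 4.45), and another 5.73 kb inside (6.65 and 6.24) with a GATA and a CCAAT match. Cdkn1c had 1, 34.3 kb upstream in an intron of Slc22a18 (5.45 and 8). Ccna1, Ccnd1, Cdkn2a, Cdkn2b and E2f6 had neither a promoter region nor, by the definition used here, a distal region in both replicates.

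The 3 pocket protein genes each had at least 1 intronic distal region with a GATA match. Such a match was in 60% of all distal regions, so it does not set these genes apart. At Rbl2 it lay 7.60 kb inside with 11.8 and 14.8, at Rbl1 19.3 kb inside (chr2:157184959-157185535) with 13.0 and 12.01, and at Rb1 3.44 kb inside with 8.60 and 10.3. The values at Rbl1 and Rb1 were above those of their promoter regions in both replicates (5.10 and 6.03, and 5.43 and 5.72). Rb1 had another 45.02 kb upstream in an intron of Itm2b (7.49 and 10.6), nearer to that gene. Among the phosphatases, Cdc25a had the highest mean percentile of any distal region here (89.3), 49.7 kb upstream in an intron of Spink8, with 13.2 and 16.1 and no GATA match. It lies close to the limit of 50 kb and nearer to Nme6. The other region of Cdc25a, 12.3 kb upstream, had 4.56 and 6.34.

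Further regions often lay nearer to another gene. Ccnb1 had 3, at 8.92, 33.9 and 35.5 kb, each with a GATA match and nearer to Cenph or Mrps36. Ccne1 had a pair at 21.6 and 22.5 kb downstream of its 5′ end, the latter with 11.5 and 11.6. Ccne2 had 1 in an intron of Ints8 (10.3 and 13.3), and Ccna2 1 in an intron of Bbs7 (8.54 and 9.22). Cdkn1a (10.9 and 10.4), Cdkn1b (8.66 and 8.61) and Cdkn2d (8.63 and 11.2) had 1 each, all with a GATA match and all nearer to another gene. E2f1 had 1 between genes, 14.2 kb upstream (9.41 and 11.7), E2f4 1 in coding sequence of 4931428F04Rik (6.34 and 10.2), and E2f7 2 (6.27 and 8.09; 6.32 and 5.70). Cdc25c had 1 in an intron of Kdm3b (11.8 and 13.4), Cdc25b 1 (6.98 and 6.68), and Wee1 2 (8.94 and 9.27; 6.88 and 6.72).

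Over the 37 regions, 22 summits were in introns, 13 between genes, 1 in coding sequence and 1 in a noncoding exon. The cell cycle gene was the nearest protein-coding gene for 23 of them, and 15 lay in its own introns. These came from few genes: 11 of the 35 had a distal region nearest to themselves. Only 7 had one in their own intron, and Ccnd3 alone had 6 such regions. The 37 regions had a median mean percentile of 51.2, beside 51.0 for all 8227 distal regions. Of the 37, 8 were at or above the 75th percentile, beside 19.9% of all. A GATA match was in 21 (56.8%, all 60%), CCAAT in 7 (18.9%, all 22%), AP-1 in 4 (10.8%, all 14%) and RUNX (TGTGGTT) in 3 (8.11%, all 11%). These shares were near those of distal regions at large. The 21 regions with a GATA match lay within 50 kb of 16 of the 35 genes, several of them nearer to another gene. No share over all genes stands beside that count, so it does not set these genes apart. An E2F match was in 0 of the 37 (all 0.547%), a share too low for that 0 to set these regions apart.

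Of a further 71 genes of the cell cycle machinery, 69 were matched. Of these, 59 (85.5%) had a promoter region in both replicates, beside 39.1% of all protein-coding genes. Their median mean percentile was 79.4, beside 72.5 over all genes with a region in both. The 5 strongest were Cdkn3, a phosphatase of CDKs (signal 17.98 and 22.1), Ccnf, the F-box protein cyclin F (17.9 and 20.5), the spindle checkpoint kinase Bub1b (17.4 and 19.1), Skp2, which targets KIP1 for degradation (17.2 and 17.8), and Ccng1, cyclin G1 (16.5 and 17.8). Cdc16, Cdk9, Cdk12 and Tfdp1 had one in replicate 2 alone, and Anapc2, Cables1, Cdk14, Cdk18, Cul1 and Lin9 had none. Distal regions in both replicates were within 50 kb of 32 of the 69 (46.4%), beside 32.3% of all protein-coding genes.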

How the data were processed

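ATAC-seq peak lists of 2 replicates of G1E were used. The authors deposited, for each replicate, peaks thresholded by the irreproducible discovery rate (26083 and 27810 peaks), a more lenient list and a ranked list, per the labels in mm10. Which aligner and which peak caller made them is not given in the sources used here. Each deposited peak has a signal value and a −log10 p, and the ranked lists hold a deposited score from which the irreproducible discovery rate was read. Its lowest value in the thresholded lists gave the threshold of 0.05. Other lists over both replicates were not used, except 1 as an alternative.

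Overlapping or touching peaks were merged in Python 3.11.15 with numpy 2.4.6, keeping the strongest peak's signal and summit. Replicates were joined at 1 bp of overlap and placed on GENCODE M21. Motifs (13 searched) were matched exactly on both strands in 200 bp around the summit of the replicate with the higher percentile. The scripts were tested on simulated data. No test was made, since there is 1 group; counts stand beside those of all genes. The members and lists were chosen with earlier results of these data known. All members are named, and of other cell cycle genes the 5 strongest and those with a region in at most 1 replicate. Of the sequences, those of Ccnd2, Cdk2 and the CCAAT boxes of Ccnb2 were picked once their values were known.

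Alternatives included the lenient lists, the stronger 50% of regions, other windows and distances, unmerged peaks, reciprocal overlap, −log10 p, and leaving out each replicate.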

Additional observations from a re-analysis of the deposited data

How the results depend on the processing

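Among the stronger 50% of regions 17 of the 35 promoters were listed in both replicates, beside 27.2% of all genes; with the other alternatives the count was 24 to 29, the lowest with outermost 5′ ends alone (35.7% of all genes). The alternatives that required the same region in both replicates and that used the authors' list over both were chosen after seeing the data, and each gave 26. The median mean percentile of 67.6 became 75.9 by −log10 p and 80.2 in the lenient lists (all genes 81.4), and 69.5 to 70.9 with 1 replicate left out. E2F matches were in 4 promoter regions, in 1 with 100 bp, in 9 over the whole region, and in 5 and 5 with 1 replicate left out. For distal regions the count of 21 genes ranged from 14 (stronger 50%, all genes 16.9%) to 28 (100 kb, all genes 48.2%). For the 69 other cell cycle genes 59 ranged from 49 (stronger 50%, all genes 27.2%) to 64 (lenient lists, all genes 43.3%).

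No paired analysis was possible because there is 1 group. The depth is unknown, and an absent region does not show closed chromatin. With 2 replicates, the spread of a value rests on 1 gap, and the signal has no scale shared between libraries. Assigning a distal region to a gene rests on distance alone.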
